A study of Mus musculus with 54 samples.

Results

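The Bcl2 family sets whether the outer mitochondrial membrane is breached during apoptosis. Its 10 members followed here were chosen by gene symbol: the anti-apoptotic genes Bcl2, Bcl2l1 (Bcl-xL), Bcl2l2 (Bcl-w) and Mcl1, the effectors Bax and Bak1, and the BH3-only genes Bid, Bad, Bcl2l11 (Bim) and Bbc3 (Puma). All 10 were present among the 23284 genes of each count table. The libraries came from C57BL/6 mice aged 3 months. WT mice carried both copies of Ctcf and Ctcfl (the gene of BORIS, the testis paralog of CTCF), CTCF HET mice had lost 1 copy of Ctcf, BORIS KO mice had lost both copies of Ctcfl, and CM mice (combined mutants, called DKO in the labels) had lost both copies of Ctcfl and 1 copy of Ctcf. The mutant alleles were carried by the whole animal, not by germ cells alone. RNA was sequenced from 12 whole-testis libraries (3 of each genotype, each from a germ cell suspension pooled over 4 mice), 12 round spermatid libraries (3 of each genotype) and 11 spermatocyte libraries (3 of each genotype except WT, which had 2). The labels do not say that the round spermatid and spermatocyte replicates came from separate animals, so their p-values measure only the spread between these libraries, which may be technical.

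Anti-apoptotic members hold the effectors in check at the mitochondrion. BH3-only proteins, produced or activated by stress, bind the anti-apoptotic members or the effectors directly, and freed Bax and Bak1 then open the outer membrane so that cytochrome c reaches the cytosol and caspases are activated. In the testis this pathway removes surplus spermatogonia and spermatocytes that fail meiosis. Bcl-w and Bax are both known from knockout mice to be needed for normal spermatogenesis, and Puma is a classical target of p53.

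The targeted genes were checked first. In whole testis the WT libraries held 39.9 to 47.0 CPM of Ctcf (CPM is the count scaled to library size by TMM factors), the BORIS KO libraries 31.8 to 38.4, the CTCF HET libraries 22.3 to 30.2 and the CM libraries 24.0 to 27.4. The CM libraries were lower than WT by a log2 fold change of -0.74 ± 0.21 (SE; edgeR adjusted p = 0.0329, and up to 0.116 with a library left out), and the 3 CTCF HET libraries, although all below WT, did not pass the test (log2 fold change -0.66 ± 0.18, adjusted p = 0.9996). Round spermatids and spermatocytes labelled CM were not lower in Ctcf: the round spermatid libraries held 172, 44.6 and 39.5 CPM beside 29.4 to 48.7 in WT, and the spermatocyte libraries 85.9, 34.0 and 33.0 beside 33.3 and 35.2. Spermatocytes labelled CTCF HET, at 32.3 to 52.4 CPM, were not lower either. Groups of these cells are therefore called libraries labelled CM or CTCF HET. Ctcfl transcripts remained countable in BORIS KO round spermatids, at 1.97 to 2.39 CPM, and in those labelled CM, at 1.11 to 2.55, beside 2.84 to 5.12 in WT. In spermatocytes the counts of Ctcfl were 6 and 5 in WT and 1, 8 and 0 in BORIS KO. They were 0, 29 and 0 in spermatocytes labelled CM, and 0, 94 and 0 in those labelled CTCF HET. Whole-testis libraries had 10437683 to 42055813 counts, round spermatid libraries 47740650 to 98545423, and those of spermatocytes 53337530 to 88946702. Spermatocytes labelled CTCF HET had counts in only 12018 to 13406 genes, against 17631 and 17683 in WT. Round spermatid marker genes (8 listed) were all higher in round spermatids than in spermatocytes in WT, where 8 of 8 passed the test, and of 9 spermatocyte markers 6 were lower and 2 higher. The WT round spermatid libraries still held 4060 to 4130 CPM of the spermatocyte markers in sum, against 8980 to 9860 in WT spermatocytes, and 906 to 1030 CPM of the round spermatid markers. Replicate 2 of the round spermatids labelled CM stood apart, with a summed level of 9 spermatogonial markers of 355 CPM against 37.1 and 64.1 in the other libraries of its group and 23.9 to 30.4 in WT.

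Levels are compared between genes as CPM per kilobase of annotated exon, written CPM/kb. In WT spermatocytes Mcl1, a short-lived anti-apoptotic protein, was the most abundant member at 28.4 ± 1.07 CPM/kb (SD, n = 2), followed by Bcl2l1 at 19.9 ± 1.16. The BH3-only gene Bad (14.4 ± 1.48) and the effector Bak1 (14.1 ± 0.0995) came next and did not differ beyond their spread. Bcl2l2 stood far lower at 1.06 ± 0.0427, above Bax at 0.418 ± 0.0468 and Bid at 0.316 ± 0.0120. Bcl2l11, Bcl2 and Bbc3 were at 0.0107, 0.00549 and 0.00329 CPM/kb, which correspond to at most 8 counts in a library. Of the 2 effectors, it was thus Bak1 and not Bax that supplied most transcripts in these cells.

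WT round spermatids kept nearly the same order of levels. Mcl1 was at 17.0 ± 0.695 CPM/kb (SD, n = 3) and Bcl2l1 at 13.1 ± 2.41, with Bad (6.35 ± 2.88) and Bak1 (5.96 ± 0.866) again overlapping. Bcl2l2 (0.316 ± 0.0375) and Bax (0.303 ± 0.223) did not differ beyond their spread, and Bid was at 0.149 ± 0.0245. Bcl2l11 (0.0779 ± 0.0560) and Bbc3 (0.0449 ± 0.0343) overlapped, and Bcl2, the founding anti-apoptotic gene, was lowest at 0.00584 ± 0.00510. In WT whole testis, a separate table made with another protocol, Bcl2l1 (25.2 ± 4.34 CPM/kb, n = 3) and Mcl1 (24.5 ± 6.97) led without differing, followed by Bad at 16.1 ± 4.15, Bak1 at 5.96 ± 1.15, Bcl2l2 at 4.48 ± 1.41, Bax at 1.58 ± 0.522, Bbc3 at 1.26 ± 0.271, Bcl2l11 at 0.789 ± 0.171, Bid at 0.394 ± 0.0476 and Bcl2 at 0.205 ± 0.0238. The anti-apoptotic genes together made up 67.2% ± 8.51 of the family's CPM/kb in WT whole testis, 62.8% ± 1.02 in WT spermatocytes and 70.5% ± 3.52 in WT round spermatids.

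**Figure D1:**
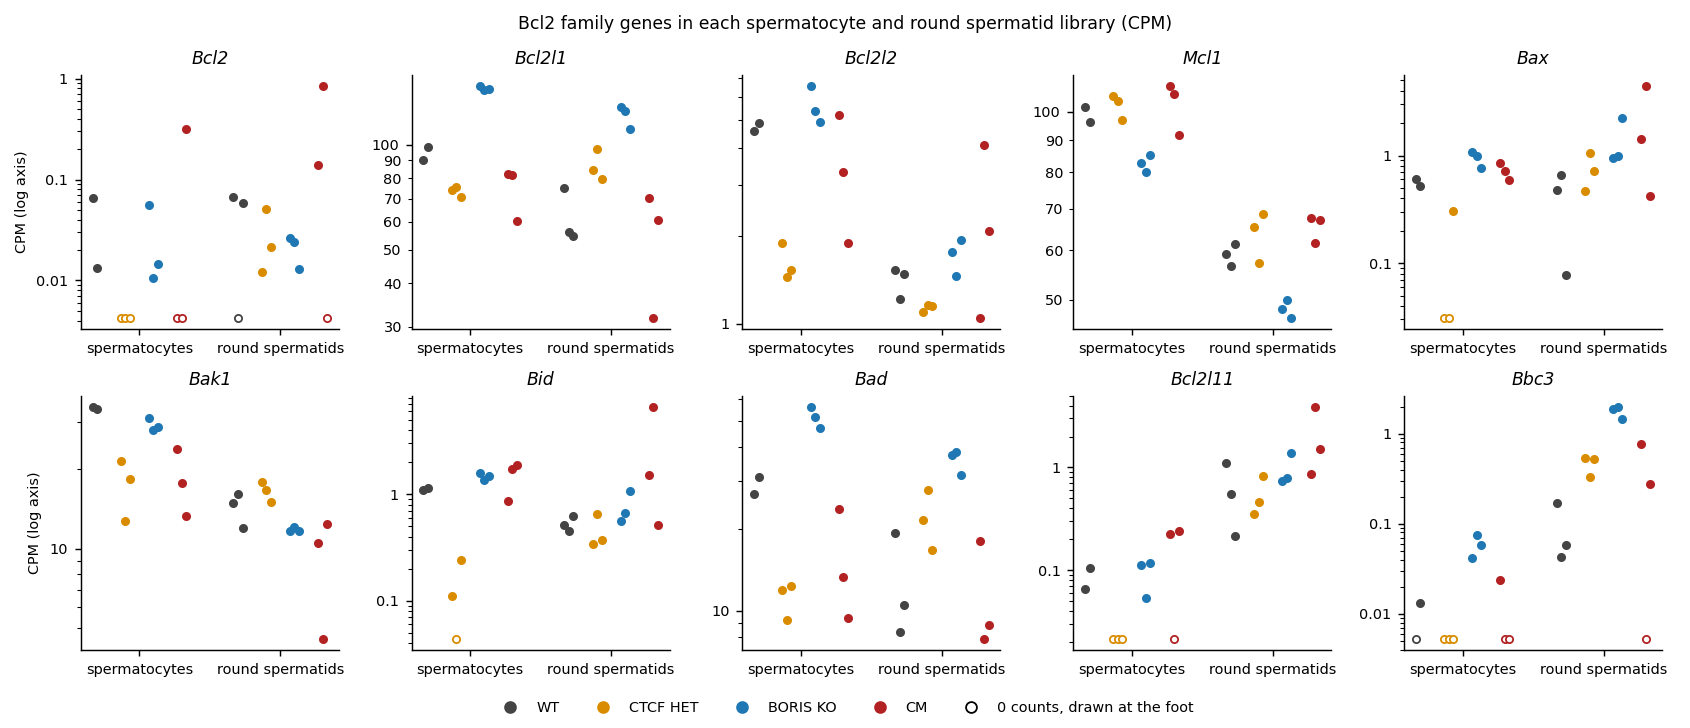
Level of each of the 10 genes (CPM, log axis) in every spermatocyte and round spermatid library, coloured by genotype, with libraries at 0 counts as open circles at the foot. Bbc3 rises from at most 0.0750 CPM in spermatocytes to 1.45 to 1.97 CPM in BORIS KO round spermatids, and replicate 2 of the round spermatids labelled CM is the highest library for Bax, Bid and Bcl2l11.

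The comparison of round spermatids with spermatocytes asks how the family changes as germ cells complete meiosis. In WT, 8 of the 10 genes had enough counts to be tested and 7 passed the threshold (adjusted p below 0.05), beside 70.0% of all 16052 genes tested. Of these, 6 were lower in round spermatids (34.2% of all genes were called lower) and 1 was higher (35.8% called higher). The median log2 fold change of the tested members was -0.884, beside 0.0152 over all genes tested. The share of members called was thus not far above the share of all genes called. Markers of other cell types differed too. Spermatogonial markers summed to 23.9 to 30.4 CPM in round spermatids and 6.73 and 6.79 in spermatocytes (5 of 8 tested called higher, 0 lower). Macrophage markers summed to 84.9 to 96.6 CPM against 2.62 and 3.06 (3 of 7 higher, 1 lower). The macrophage sum did not rest on the whole list, since C1qa was at 0 counts in all WT libraries of both cell types. Sertoli markers were at 6.04 to 8.36 CPM against 13.4 and 13.9 (0 of 7 higher, 3 lower). Their part was not tested.

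Of the 4 anti-apoptotic genes, 3 were lower in WT round spermatids, and Bcl2 was too low to be tested. Bcl2l2 was at 1.53, 1.22 and 1.48 CPM in round spermatids and 4.60 and 4.87 in spermatocytes, a log2 fold change of -1.71 ± 0.21 (SE; adjusted p = 0.000255). Mcl1 stood at 59.1, 56.6 and 61.5 CPM against 102 and 96.5, a log2 fold change of -0.72 ± 0.10 (adjusted p = 0.000393). Bcl2l1 had 75.1, 56.2 and 54.6 CPM against 90.5 and 98.2 (log2 fold change -0.58 ± 0.15, adjusted p = 0.0111). All round spermatid libraries lay below all spermatocyte libraries for these 3 genes. Without WT spermatocyte replicate 2 the call of Bcl2l1 was lost (adjusted p = 0.0753).

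Among the pro-apoptotic genes, the effector Bak1 was also lower. It was at 14.9, 16.1 and 12 CPM in round spermatids and 34.2 and 33.8 in spermatocytes (log2 fold change -1.22 ± 0.15, adjusted p = 0.000257). Bax stood at 0.474, 0.664 and 0.0778 CPM against 0.605 and 0.516, and these overlapping groups gave no call. Bad, whose protein is inactivated by survival kinases, had 19.3, 8.37 and 10.5 CPM against 26.9 and 31.1 (log2 fold change -1.15 ± 0.32, adjusted p = 0.0144). Bid, which caspase-8 cleaves to link death receptors to mitochondria, was at 0.519, 0.450 and 0.622 CPM against 1.09 and 1.15 (log2 fold change -1.05 ± 0.33, adjusted p = 0.0229). The calls of both rested on few libraries. Bad lost its call without round spermatid replicate 3 (adjusted p = 0.0525) or spermatocyte replicate 2 (0.0737), and Bid without round spermatid replicate 2 (0.0547) or spermatocyte replicate 1 (0.117) or 2 (0.144).

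Bcl2l11 went the other way. This BH3-only gene, known for its part in the death of cells deprived of growth factors, was at 1.11, 0.557 and 0.214 CPM in WT round spermatids and 0.0657 and 0.106 in spermatocytes. Every round spermatid library was above both spermatocyte libraries (log2 fold change 2.89 ± 0.82, adjusted p = 0.0157). Without spermatocyte replicate 1 or 2 the adjusted p became 0.100 or 0.0633. With 1 estimate of the spread shared by all groups of the table, Bcl2l11 (adjusted p = 0.0658) and Bid (0.305) did not pass in WT. Bbc3 was too low to be tested in WT, with 15, 2 and 3 counts in round spermatids and 0 and 1 in spermatocytes. Bcl2 had at most 6 counts in any WT library of either cell type.

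The other genotypes were set against this WT pattern gene by gene. In BORIS KO, 8 of 9 tested members passed, beside 83.3% of 15516 genes: 6 were lower (41.6% of all genes) and 2 higher (41.7%). The 6 lower genes were those of WT, with log2 fold changes of -1.67 ± 0.17 for Bcl2l2, -1.26 ± 0.07 for Bak1, -0.89 ± 0.26 for Bid, -0.73 ± 0.05 for Mcl1, -0.48 ± 0.09 for Bad and -0.21 ± 0.06 for Bcl2l1. Bcl2l11 was again higher (3.43 ± 0.41, adjusted p = 4.46e-05), and Bbc3 rose from 0.0416, 0.0750 and 0.0585 CPM in spermatocytes to 1.90, 1.97 and 1.45 in round spermatids (log2 fold change 4.90 ± 0.29, adjusted p = 3.79e-07). All 8 calls held when any single BORIS KO library was left out. With the spread shared by all groups, Bcl2l1 (adjusted p = 0.339), Bid (0.369) and Bad (0.222) did not pass. Spermatogonial markers were again higher in round spermatids, at 21.8 to 40.8 CPM in sum against 6.57 to 7.39 (7 of 9 called higher, 0 lower). The part of these markers was not tested.

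Libraries labelled CTCF HET gave calls for 4 of 9 tested members (53.6% of 14632 genes were called). Mcl1 was lower (log2 fold change -0.63 ± 0.10, adjusted p = 0.00245) and Bad higher (1.04 ± 0.23, adjusted p = 0.00924). The other two, Bcl2l11 and Bbc3, had 0 counts in all 3 spermatocyte libraries. A floor of 3 counts per library stood at 0.0605 CPM on average. The round spermatid mean of Bcl2l11 (0.544 CPM) was 9.0-fold above this floor, and that of Bbc3 (0.461 CPM) 7.63-fold. The lowest round spermatid libraries held 0.352 and 0.332 CPM of these genes. The folds compare means with a floor and leave out the spread between libraries. Both genes entered the test through the round spermatids. The spermatocyte libraries were those with the fewest genes detected (12018 to 13406), and the part of this was not tested. With each library's trend on GC content removed, as described for the genotype comparisons, Bad no longer passed and turned to -0.24 (adjusted p = 0.208), while Bcl2l1, which passed without round spermatid replicate 3 (0.39, adjusted p = 0.0485), turned from 0.29 (adjusted p = 0.0554) to -0.44 (adjusted p = 0.0114) and Bak1 moved from -0.03 (adjusted p = 0.926) to -1.04 (adjusted p = 0.00517). In libraries labelled CM, 1 of 9 tested members was called (27.9% of 15037 genes). Mcl1 was at 67.7, 61.6 and 67.0 CPM in round spermatids and 110, 107 and 92.0 in spermatocytes (log2 fold change -0.66 ± 0.17, adjusted p = 0.0260), and the call was lost without round spermatid replicate 3 (adjusted p = 0.0868) or spermatocyte replicate 1 (0.0884), 2 (0.138) or 3 (0.0773). Mcl1 was the member called lower in all 4 genotypes.

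**Figure D2:**
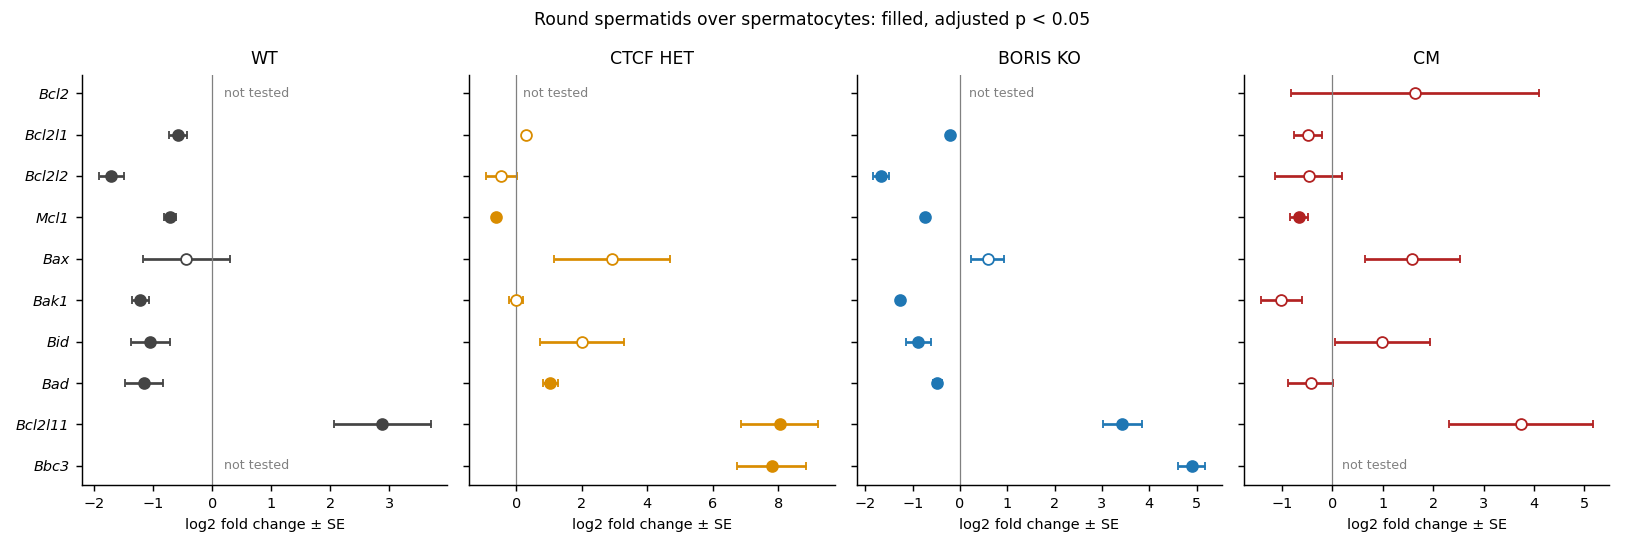
Log2 fold change (± SE) of each gene in round spermatids over spermatocytes, with a panel for each genotype and filled circles for adjusted p below 0.05. Mcl1 lies below 0 in all 4 panels and Bcl2l11 above 0, where the large values under CTCF HET come from genes at 0 counts in the spermatocyte libraries.

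In BORIS KO round spermatids set against WT, as fitted, Bbc3, Bcl2l1 and Bad had the lowest adjusted p of the members. Of 9 tested members, 5 passed the threshold, beside 55.8% of 15513 genes tested. The share of members called was thus close to that of all genes. The median log2 fold change of the members was 0.623, beside -0.0132 for all genes. Bbc3 was at 1.90, 1.97 and 1.45 CPM (144, 165 and 112 counts), against 0.169, 0.0428 and 0.0583 CPM in WT (15, 2 and 3 counts). The groups did not overlap and the log2 fold change was 4.17 ± 0.46 (adjusted p = 9.81e-05). Bcl2l1 stood at 128, 125 and 111 CPM against 75.1, 56.2 and 54.6 in WT (log2 fold change 1.01 ± 0.14, adjusted p = 0.000315). Both the Bbc3 and the Bcl2l1 call held when any single library was left out.

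Bad and Bax were higher and Mcl1 lower in the same comparison. Bad stood at 37.5, 38.4 and 31.6 CPM against 19.3, 8.37 and 10.5 (log2 fold change 1.53 ± 0.27, adjusted p = 0.0013). Bax was at 0.951, 0.980 and 2.21 CPM against 0.474, 0.664 and 0.0778 (log2 fold change 1.79 ± 0.60, adjusted p = 0.0314), and lost its call without BORIS KO replicate 3 (adjusted p = 0.146) or WT replicate 1 (0.0698) or 3 (0.0580). Mcl1 had 48.4, 49.9 and 46.8 CPM against 59.1, 56.6 and 61.5 (log2 fold change -0.25 ± 0.10, adjusted p = 0.0496), and lost its call when any single BORIS KO replicate was left out (adjusted p 0.113 to 0.130) or without WT replicate 3 (0.0885). Bak1, Bcl2l2, Bcl2l11 and Bid did not pass, although Bak1 did without WT replicate 3 (-0.37, adjusted p = 0.0441) and Bcl2l11 without WT replicate 1 (1.38, adjusted p = 0.0287). Bcl2, with 1 or 2 counts in each BORIS KO library, was not tested. As a share of the family's CPM/kb, the BH3-only genes made up 29.3% ± 1.31 in BORIS KO round spermatids and 14.9% ± 4.67 in WT. The 3 values of 27.8% to 30.4% lay above the WT range of 11% to 20.1%. Bad made up nearly all of this class, at 17.9 CPM/kb in BORIS KO and 6.35 in WT. Bbc3, Bid and Bcl2l11 were at most at 0.884 CPM/kb in either group. The share was not computed with the GC trend, described next, removed.

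A trend on GC content went with these differences, and its origin was not tested. The 3 members of highest exon GC content, Bbc3 (64.59%), Bax (61.84%) and Bad (59.29%), were those with the largest log2 fold changes, and over all genes the log2 fold change of BORIS KO over WT rose with GC content: the smooth trend stood at 1.46 at the GC content of Bbc3, 1.26 at that of Bax, 1.07 at that of Bad and 0.540 at that of Bcl2l1. With each library's trend removed, an alternative chosen after the data were examined, Bbc3 remained higher (log2 fold change 2.82, adjusted p = 0.00053), as did Bcl2l1 (0.48, adjusted p = 0.00582). Bax (0.58, adjusted p = 0.469), Bad (0.50, adjusted p = 0.0706) and Mcl1 (-0.20, adjusted p = 0.111) no longer passed, while Bak1 moved from -0.24 (adjusted p = 0.181) to -1.13 (adjusted p = 0.000213). With the spread shared by all groups, Bax (adjusted p = 0.226) and Mcl1 (0.145) did not pass. Spermatocyte markers also moved in this comparison. Their summed level was 2600 to 2770 CPM in BORIS KO and 4060 to 4130 in WT. Of 9, 6 were called lower and 1 higher (4 and 0 with the GC trend removed). The 8 round spermatid markers summed to 708, 719 and 1330 CPM against 906 to 1030. Of these 8, 3 were called higher and 1 lower (0 and 2 with the trend removed). Sertoli markers summed to at least 12.4 CPM in BORIS KO and at most 8.36 in WT. Of 4 Sertoli markers tested, 3 were called higher (1 with the trend removed), and of 4 peritubular markers 2 were (1 with it removed). The part of these markers in the result was not tested.

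In BORIS KO spermatocytes Bcl2l1, Bad and Bax were higher than in WT and Mcl1 and Bak1 lower. Of 7 tested members, 5 passed, beside 57.2% of 14338 genes. Bcl2l1 was at 147, 143 and 144 CPM against 90.5 and 98.2 in WT (log2 fold change 0.61 ± 0.06, adjusted p = 6.83e-06), and Bad at 56.0, 51.6 and 46.9 CPM against 26.9 and 31.1 (0.82 ± 0.09, adjusted p = 1.72e-05). Mcl1 was at 82.7, 80.0 and 85.3 CPM against 102 and 96.5 (-0.27 ± 0.06, adjusted p = 0.00245). For these 3 genes the groups did not overlap and no single library decided the call. Bax had 1.08, 0.996 and 0.761 CPM against 0.605 and 0.516 (0.75 ± 0.24, adjusted p = 0.0169), and Bak1 31.1, 28.0 and 28.8 CPM against 34.2 and 33.8 (-0.22 ± 0.07, adjusted p = 0.0187). Spermatocyte markers moved with these differences, with sums of 7040 to 7400 CPM against 8980 to 9860 in WT (5 of 9 called lower), as did round spermatid markers, at 42.3 to 61.3 against 34.7 and 35 CPM (3 of 8 called higher). Their part in the result was not tested.

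The GC trend was 0.718 at Bax, 0.612 at Bad and 0.318 at Bcl2l1 in this comparison. With it removed, Bax fell to 0.03 (adjusted p = 0.925), Bad stood at 0.21 (adjusted p = 0.0247), Bcl2l1 at 0.29 (adjusted p = 0.000747), Mcl1 at -0.24 (adjusted p = 0.00459) and Bak1 at -0.73 (adjusted p = 5.13e-05). The call of Bax was also lost without WT replicate 1 (adjusted p = 0.0624) or 2 (0.128), and that of Bak1 without BORIS KO replicate 2 (0.103) or 3 (0.0602) or without WT replicate 1 (0.0896) or 2 (0.0534). When all 4 genotypes of the table shared 1 estimate of the spread, none of the 5 genes passed (adjusted p from 0.121 for Bcl2l1 to 0.901 for Bax). As fitted, Bcl2l1, Bad and Bax were thus called higher and Mcl1 lower than WT in BORIS KO in both cell types. With the GC trend removed, Bcl2l1 was called higher and Bak1 lower in both. Bak1 was not called in round spermatids as fitted, and Mcl1 did not pass there with the trend removed. Bbc3 had only 3, 7 and 4 counts in BORIS KO spermatocytes and was not tested.

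**Figure D3:**
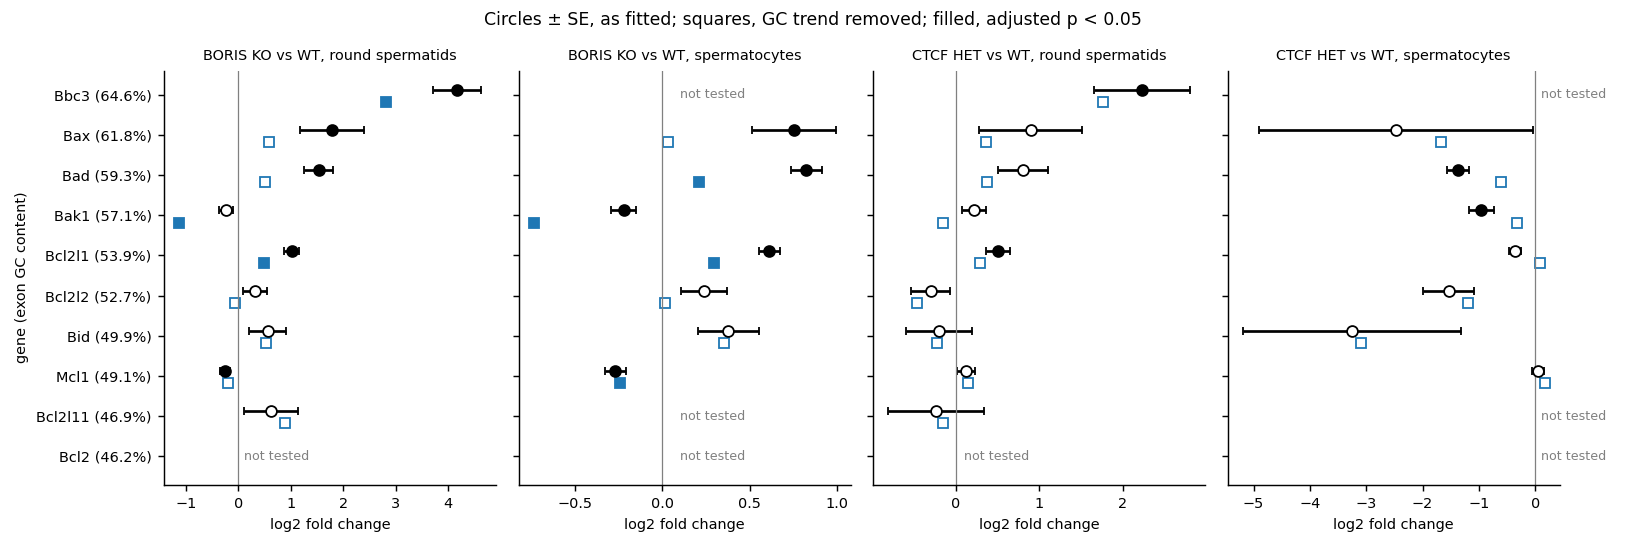
Log2 fold change over WT of each gene, ordered by exon GC content, in the BORIS KO and CTCF HET comparisons of both cell types, as fitted (circles, ± SE) and with each library's GC trend removed (squares), filled where the adjusted p is below 0.05. In BORIS KO round spermatids Bbc3 moves from 4.17 to 2.82 and stays filled, whereas Bax moves from 1.79 to 0.58 and Bad from 1.53 to 0.50 and both become open.

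Libraries labelled CTCF HET gave calls above WT in round spermatids and below WT in spermatocytes, for different members. In round spermatids 2 of 9 tested members were called, beside 22.3% of 15238 genes. Bbc3 was at 0.533, 0.332 and 0.519 CPM (44, 26 and 24 counts) against 0.169, 0.0428 and 0.0583 in WT (log2 fold change 2.23 ± 0.58, adjusted p = 0.0272), and Bcl2l1 at 84.6, 96.9 and 79.7 CPM against 75.1, 56.2 and 54.6 (0.51 ± 0.14, adjusted p = 0.0365). Both calls were lost when any single CTCF HET replicate was left out or without WT replicate 2 or 3 (adjusted p 0.0681 to 0.112 for Bbc3 and 0.0609 to 0.141 for Bcl2l1), and with the GC trend removed (1.76 and 0.29, adjusted p = 0.0528 and 0.0535) or the spread shared by all groups (adjusted p = 0.340 and 0.148). Bbc3 had 15, 2 and 3 counts in WT, so it entered the test through the CTCF HET libraries. Bad, not called, passed without WT replicate 1 (1.24, adjusted p = 0.00118). Round spermatid markers moved in the same comparison, with sums of 667 to 718 CPM against 906 to 1030 in WT (4 of 8 called lower, and 6 with the GC trend removed). The Sertoli marker sums were 12.2 to 15.3 CPM against 6.04 to 8.36, with 2 of 4 tested genes called higher. The part of these markers was not tested. In spermatocytes 2 of 7 tested members were called, beside 15.5% of 13648 genes. Bad was at 11.9, 9.29 and 12.3 CPM against 26.9 and 31.1 (-1.37 ± 0.19, adjusted p = 0.00764), and Bak1 at 21.4, 12.7 and 18.3 CPM against 34.2 and 33.8 (-0.96 ± 0.22, adjusted p = 0.0299). With the GC trend removed neither passed (-0.61 and -0.33, adjusted p = 0.0808 and 0.471). Bad lost its call without CTCF HET replicate 2 (adjusted p = 0.0553), and Bak1 when any single CTCF HET replicate was left out (0.0506 to 0.0869) or without WT replicate 2 (0.0724). Bax had 0, 0 and 14 counts, was not called, and passed without the replicate holding the 14 (adjusted p = 0.0393, with all counts at 0 in the group). Bcl2, Bcl2l11 and Bbc3 had 0 in every library, and these were the libraries with the fewest genes detected. The part of this loss of detection in the result was not tested.

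Germ cells labelled CM gave no called member in either cell type. In round spermatids 9 members were tested and 0 called, beside 0.00654% of 15298 genes. At an unadjusted p under 0.05 there were 2 members and 3136 genes. The median log2 fold change of the members was 0.902, with wide errors: Bid was at 1.53, 6.55 and 0.516 CPM (2.58 ± 0.93, adjusted p = 0.190), Bax at 1.43, 4.42 and 0.425 CPM (2.51 ± 1.07, adjusted p = 0.240) and Bcl2l11 at 0.863, 3.86 and 1.5 CPM (1.86 ± 0.84, adjusted p = 0.260). In each of the 3 genes the highest library was replicate 2, the library with the high spermatogonial marker sum, and the groups overlapped WT. Round spermatid markers were low in all 3 libraries, with sums of 296 to 549 CPM against 906 to 1030 in WT, and their part was not tested. Replicate 2 also had the lowest level of Bak1 (4.57 CPM beside 10.5 and 12.4) and of Bcl2l1 (31.9 beside 70.2 and 60.6). DESeq2 called Bid alone (adjusted p = 0.0412). In spermatocytes 8 members were tested and 0 called, beside 0.604% of 14747 genes, with 1 at an unadjusted p under 0.05. Bak1 was at 23.7, 17.7 and 13.3 CPM, below both WT libraries (-0.86 ± 0.23, adjusted p = 0.0833), and DESeq2 called it (adjusted p = 0.00665). Without CM replicate 1, the library with the most Ctcf, Bak1 (-1.07, adjusted p = 0.00556) and Bad (-1.29, adjusted p = 0.00605) passed. The GC trend of this comparison was -0.448 at Bak1 and -0.504 at Bad, and with it removed Bak1 stood at -0.44 (adjusted p = 0.128) and Bad at -0.42 (adjusted p = 0.291). The difference of the CM effect between round spermatids and spermatocytes was tested directly: 0 of 10 members were called, beside 3.51% of 17077 genes, 0 members had an unadjusted p under 0.05, and DESeq2 also called 0.

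In whole testis, Bax was the member called in CM by the main fit, which did not pair libraries by replicate number. It was at 7.00, 4.95 and 7.78 CPM in CM (279, 81 and 100 counts), against 1.68, 1.75 and 2.92 in WT (57, 27 and 34 counts). All CM libraries were above all WT libraries (log2 fold change 1.61 ± 0.36, adjusted p = 0.0189). It was the 1 called member of 10, beside 25.2% of 16378 genes. The other effector, Bak1, was at 9.76, 13 and 11.7 CPM against 12.7, 12.9 and 17.5 and was not called. The call did not hold without CM replicate 3 (adjusted p = 0.0653) or WT replicate 1 (0.0609), 2 (0.0804) or 3 (0.0603), although the log2 fold change kept within 1.41 to 1.92. With the GC trend removed Bax stood at 1.46 (adjusted p = 0.0192).

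Bcl2l2 and Bid missed the threshold in the main, unpaired fit. Bcl2l2 had 76, 29.0 and 33.4 CPM against 27.2, 16.7 and 16.1 (1.17 ± 0.38, adjusted p = 0.0512), and Bid 4.82, 1.90 and 3.03 CPM against 1.5, 1.49 and 1.20 (1.18 ± 0.39, adjusted p = 0.0538). For both, the CM libraries lay above the WT libraries. Equal replicate numbers mark libraries that deviated together in whole testis, and the fit with the number as a block called 3 members, beside 43.0% of all genes: Bax (1.64, adjusted p = 0.00162), Bcl2l2 (1.08, adjusted p = 0.00262) and Bid (1.13, adjusted p = 0.0290). Both also passed without CM replicate 2 (adjusted p = 0.0292 for Bcl2l2 and 0.0196 for Bid). Bcl2l1 was at 103, 101 and 61.9 CPM against 143, 106 and 108, below WT in every library but not called (-0.46 ± 0.26, adjusted p = 0.207). Mcl1, Bad, Bcl2l11 and Bbc3 overlapped WT, the last with 3.34, 2.14 and 2.57 CPM against 3.01, 1.94 and 2.67. Bcl2 had 2.66, 1.90 and 1.95 CPM against 1.5, 1.29 and 1.63, above WT but not called (0.53 ± 0.32, adjusted p = 0.236).

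No member was called in the single mutants. In CTCF HET whole testis 0 of 10 members were called, beside 0.00621% of 16097 genes, and in BORIS KO 0 of 10, beside 0.0551% of 16344 genes. No member had an unadjusted p under 0.05 in either comparison, and DESeq2 and the blocked fit called 0 members in both. Bax was at 3.13, 1.82 and 2.86 CPM in CTCF HET and 2.99, 2.14 and 4.01 in BORIS KO, overlapping WT in each case. Set against CTCF HET, the CM libraries were higher in Bax (1.28 ± 0.35, adjusted p = 0.0404), the 1 called member beside 15.5% of 16531 genes. That call was lost without CM replicate 3 (adjusted p = 0.109) or CTCF HET replicate 1 (0.0667), 2 (0.152) or 3 (0.113). Bcl2l2 passed without CM replicate 2 (1.41, adjusted p = 0.0454). The blocked fit called Bax (adjusted p = 0.0022), Bcl2l2 (1.02, adjusted p = 0.0012) and Bcl2l1 (-0.70, adjusted p = 0.0123), beside 43.0% of genes. Set against BORIS KO, Bax did not pass (1.06 ± 0.33, adjusted p = 0.149) although the libraries did not overlap. There 0 members were called, beside 0.006% of 16655 genes, 1 had an unadjusted p under 0.05 and DESeq2 called 0. The blocked fit called Bax (1.09, adjusted p = 0.0498), beside 7.36% of genes. The test of whether the loss of 1 Ctcf copy acted differently with and without BORIS called 0 members, beside 0.0% of 17185 genes (1713 genes and 0 members at an unadjusted p under 0.05, and 0 members by DESeq2). Its value for Bax was 0.77 ± 0.49 (adjusted p = 0.593).

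Markers of several cell types moved with Bax in CM. The summed level of 10 Sertoli markers was 741 to 1590 CPM in CM and 288 to 497 in WT, with 5 of 10 genes called higher. That of 8 Leydig markers was 1930 to 3860 CPM against 386 to 676 (6 of 8 called higher), and that of 9 spermatogonial markers 121 to 422 against 54.9 to 75.3 (3 of 9 called higher). The 8 round spermatid markers summed to 4250 to 12300 CPM against 13700 to 21300 (3 of 8 called lower). For 9 macrophage markers the sums overlapped (518 to 783 against 477 to 665) although 7 of 9 were called higher. Of 5 peritubular markers 1 was called higher, of 5 endothelial markers 1 higher and 1 lower, and of 9 spermatocyte markers 1 lower. No marker of these lists was at 0 in either group. Fewer cells of a type and less RNA per cell cannot be told apart in such bulk samples, and the part of the cell mixture in the Bax result was not tested.

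**Figure D4:**
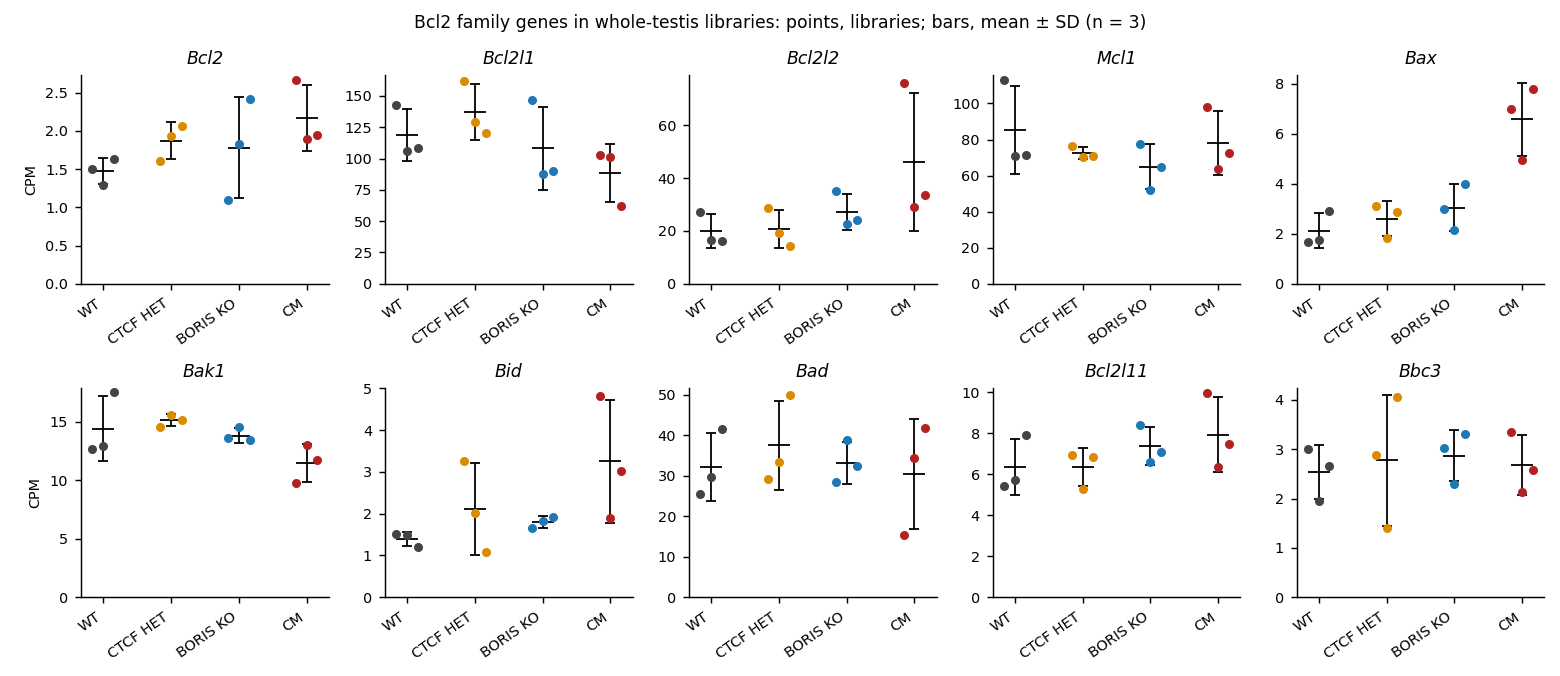
Level of each gene (CPM) in the 3 whole-testis libraries of each genotype, with bars for the mean ± SD. The 3 CM libraries of Bax, at 4.95 to 7.78 CPM, lie above the other 9, which reach 4.01.

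The rest of the pathway was followed through fixed lists. In CM whole testis, where 16.4% of all genes tested were called higher and 8.8% lower, 8 of 19 tested caspase and apoptosome genes were higher and 0 lower, among them Aifm1 (log2 fold change 1.53 ± 0.28), the caspase inhibitor Xiap (1.98 ± 0.37) and the somatic cytochrome c Cycs (1.37 ± 0.26). Of 12 death receptor genes 4 were higher, with Tnfrsf1a at 2.05 ± 0.38, Casp8 at 1.85 ± 0.38 and its inhibitor Cflar at 1.57 ± 0.34. Of 17 p53 and DNA damage genes 7 were higher, led by Gadd45a at 3.54 ± 0.46, Trp53inp1 at 1.63 ± 0.29 and Ccng1 at 1.87 ± 0.37. Xiap and Cflar restrain caspases, so the genes that were higher included both arms. Of 10 other Bcl2 family genes, Bnip3 was higher (2.14 ± 0.37) and Bcl2l14 lower (-1.49 ± 0.26). The median log2 fold changes of the 4 lists, in this order, were 0.92, 0.50, 0.55 and 0.53, beside 0.00349 for all genes. Of 6 mitochondrial outer membrane genes, the channel gene Vdac1 was higher (1.67 ± 0.31) and 0 were lower, while the list's median was -0.41. In CM set against WT in whole testis, the adjusted p of the genes named here lay between 0.0151 and 0.0184. These calls rested on single libraries: without WT replicate 2, WT replicate 3 or CM replicate 3, 0 genes of any of these lists or of the cell type marker lists were called, in fits that called 11, 3 and 4 genes in all. Without WT replicate 1, 4 caspase and apoptosome, 3 death receptor and 4 p53 and DNA damage genes were called higher.

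In WT round spermatids set against spermatocytes, 6 of 17 tested caspase and apoptosome genes were higher and 8 lower, beside 35.8% and 34.2% of all genes. Diablo, which frees caspases from their inhibitors, was lower (log2 fold change -1.52 ± 0.10), as were Dffa (-3.25 ± 0.24) and the testis cytochrome c Cyct (-1.40 ± 0.11). Of 9 death receptor genes, 4 were lower, including Cflar (-2.73 ± 0.20), and 2 higher, including Fasl (3.80 ± 0.33). Of 18 p53 and DNA damage genes 7 were lower and 5 higher, and Trp53 itself was at -2.03 ± 0.21. The largest changes of the wider Bcl2 family fell on genes outside the 10: Bcl2l14 was higher (5.73 ± 0.13), and Bcl2l12 (-4.65 ± 0.23) and the BH3-only gene Pmaip1, known as Noxa (-3.14 ± 0.27), were lower. Of 6 outer membrane genes 4 were higher, and with the GC trend removed 0 were.

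In BORIS KO round spermatids 26.8% of all genes tested were called higher and 29.0% lower. Of 16 caspase and apoptosome genes 5 were higher and 2 lower, a smaller share called than over all genes, with Casp9, the initiator caspase of the apoptosome, at 1.27 ± 0.21 and Cyct at -1.60 ± 0.09. Of 18 p53 and DNA damage genes 3 were higher and 7 lower, and with the GC trend removed 2 were higher and 2 lower. Mdm2, the ubiquitin ligase that holds p53 down, moved from -0.68 ± 0.08 to -0.20 (adjusted p = 0.0768). The BH3-like gene Bnip3l was lower (-1.55 ± 0.19), also with the trend removed (-0.79, adjusted p = 0.00233). In BORIS KO spermatocytes Bnip3l was lower again (-1.11 ± 0.08), with 3 of 8 other family members higher and 4 lower, beside 29.1% and 28.1% of all genes. With the GC trend removed 1 was higher and 2 lower. Libraries labelled CTCF HET differed in Trp53 itself, which was higher in round spermatids (1.24 ± 0.23, adjusted p = 0.00912) and lower in spermatocytes (-1.53 ± 0.40, adjusted p = 0.0406; with the GC trend removed -1.16, adjusted p = 0.120). Spermatocytes labelled CM had 1 of 8 other family members called, Pmaip1 (1.62 ± 0.19, adjusted p = 0.0392). In the comparison of the CM effect between cell types, Bcl2l14 was the called family gene outside the 10 (-2.56 ± 0.53, adjusted p = 0.0237).

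The genes most like each member were sought over the 23 round spermatid and spermatocyte libraries, among genes with a mean of at least 1 CPM, by Pearson's r of log2(CPM + 0.1). Of the 10 members 6 reached that level. Bcl2l1 ran with Pnpla7 (r = 0.991) and Trafd1 (0.977), Bad with 1700017B05Rik (0.990) and Atp5b (0.984), and Mcl1 with Atr (0.987) and Mbtd1 (0.984). Bak1 ran with Hunk (0.959) and Eif2s1 (0.945), Bcl2l2 with Pwp2 (0.932) and Pdrg1 (0.920), and Bid with Adk (0.903) and Psma7 (0.893). These libraries share 2 cell types and the GC trends described for the genotypes, so the values describe these libraries and carry no test.

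CTCF and BORIS peaks were then read at the 10 loci from the deposited lists, which give each peak on mm9 with its height. The CTCF and BORIS lists were made from whole-testis germ cells, and no list keeps replicates apart. In WT, 7 of the 10 members had a CTCF peak within 1 kb of an annotated start, beside 26.6% of 22367 protein-coding genes, and 4 had a BORIS peak (Bcl2l1, Bcl2l11, Bid and Bbc3), beside 13.5%. In CM 3 members kept a promoter CTCF peak (Bcl2l1, Bid and Bbc3), beside 9.28% of genes, while Bak1, Bcl2l11, Bad and Mcl1 were without one. Every annotated start was used, for all genes alike, and the members had from 1 (Bcl2) to 10 (Bcl2l1). The Bid peaks of WT CTCF and BORIS lay in an intron, 18536 and 18526 bases from the outermost start, and counted through an internal start. So did the Bcl2l11 BORIS peak, 1506 bases from the outermost start. Of the 24 WT CTCF peaks within 5 kb of the members, 9 (37.5%) overlapped a CM peak, beside 56.1% of all 34625 WT CTCF peaks. Of the 10 peaks at member promoters 3 did (30.0%), beside 32.3% of promoter peaks of all protein-coding genes. The 3 loci with no promoter CTCF peak in WT were Bax, Bcl2 and Bcl2l2. The WT CTCF peaks of Bax nearest to a start were one in an intron, 3765 bases from the nearest start (height 225) and listed in WT alone, and one upstream at -4150 bases (height 392 in WT), where a CM peak was also listed (height 333).

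The 6 places at these loci where a WT CTCF peak overlapped a WT BORIS peak are shown as sequence around the CTCF summit. At Bcl2l11 the printed window shares no base with the BORIS peak, which starts at 127953176, further along the same CTCF peak. Each runs 75 bases either side of the CTCF summit, or less where an exon was trimmed off, and is read 5′ to 3′ on the strand of the gene from NCBIM37 (mm9). Capitals mark core words of the CTCF motif on either strand. The first word searched was AGGGGGC on both strands. The next word searched was AGGTGGC on both strands. A further word searched was AGAGGGC on both strands. The last word searched was AGATGGC on both strands. Matches on one strand cannot overlap each other, whereas matches on opposite strands can share the bases GC.
Bbc3, intron, chr7:16895404-16895553, plus strand: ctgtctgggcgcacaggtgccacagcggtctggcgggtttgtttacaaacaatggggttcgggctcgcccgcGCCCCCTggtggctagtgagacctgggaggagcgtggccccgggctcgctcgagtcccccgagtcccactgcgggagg
Bbc3, intron, chr7:16899457-16899606, plus strand: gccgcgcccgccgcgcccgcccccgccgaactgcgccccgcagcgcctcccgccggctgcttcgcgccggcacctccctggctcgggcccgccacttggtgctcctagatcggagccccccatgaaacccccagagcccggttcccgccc
Bcl2l1, upstream of the start, chr2:152657465-152657561, minus strand: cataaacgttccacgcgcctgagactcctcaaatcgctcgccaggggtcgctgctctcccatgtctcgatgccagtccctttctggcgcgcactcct
Bcl2l1, downstream of the gene, chr2:152592348-152592497, minus strand: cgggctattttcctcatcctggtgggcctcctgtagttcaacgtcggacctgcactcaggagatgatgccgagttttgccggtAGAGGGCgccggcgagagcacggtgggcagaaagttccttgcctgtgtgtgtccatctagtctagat
Bid, intron, chr6:120848261-120848410, minus strand: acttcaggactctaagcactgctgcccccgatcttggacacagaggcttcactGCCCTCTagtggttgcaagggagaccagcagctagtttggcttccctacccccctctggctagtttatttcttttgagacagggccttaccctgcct
Bcl2l11, intron, chr2:127952932-127953081, plus strand: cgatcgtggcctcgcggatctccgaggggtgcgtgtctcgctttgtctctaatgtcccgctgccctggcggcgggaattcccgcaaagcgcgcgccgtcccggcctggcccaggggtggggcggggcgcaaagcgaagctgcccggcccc
The words were present in 3 of the 6 windows, beside 59.5% of windows of 150 bases around all WT CTCF summits, 64.1% around BORIS summits and 17.6% around the starts of protein-coding genes. A match is a description of these letters only.

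The 2 Bbc3 places differed in CM. The first, 513 bases inside the gene, had a CTCF height of 2797 in WT (above 91.9% of the list) and a BORIS height of 181, and a CTCF peak of height 177 remained in CM. The second, 4566 bases inside and without a motif word in the window, had a CTCF height of 516 and BORIS heights of 154 and 53, and no CM CTCF peak overlapped it. The Bcl2l1 promoter peak (3058 in WT, with BORIS at 325) was still listed in CM at 565, the Bcl2l1 downstream peak (3654, with BORIS at 95) at 590, and the Bid peak (973, with BORIS at 43) at 478. The Bcl2l11 peak (226, with BORIS at 127) was absent from the CM list. Heights were not scaled between lists, so they are not compared as amounts. The windows with a motif word were the first of Bbc3, the downstream one of Bcl2l1 and that of Bid, and all 3 kept a CM peak. Of the windows without a word, that of the Bcl2l1 promoter also kept one, and the second of Bbc3 and that of Bcl2l11 did not. A link between words and kept peaks was not tested.

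RNA polymerase II (Pol2) and the promoter mark H3K4me3 were listed at most members in both genotypes. WT had a promoter Pol2 peak at 6 of 10 members (38.5% of genes) and CM at 9 (45.4%). The 3 members with a Pol2 peak in CM and none in WT were Bax, Bcl2l2 and Bbc3, a pattern held by 8.39% of all protein-coding genes, and 0 members had the reverse pattern (1.49%). The Bax peak had a score of 69.61, the highest Bbc3 peak 269.92 and the highest Bcl2l2 promoter peak 79.27, in a list whose lowest score is 50 and median 113.43. All 3 genes had H3K4me3 at the promoter in WT and CM. H3K4me3 was listed at the promoters of 8 members in WT (50.7% of genes) and 9 in CM (55.1%), the added member being Bid. Bcl2 had no promoter Pol2 or H3K4me3 peak in either genotype. These lists come from the same kind of mixed suspension as the whole-testis RNA, without replicate values.

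**Figure D5:**
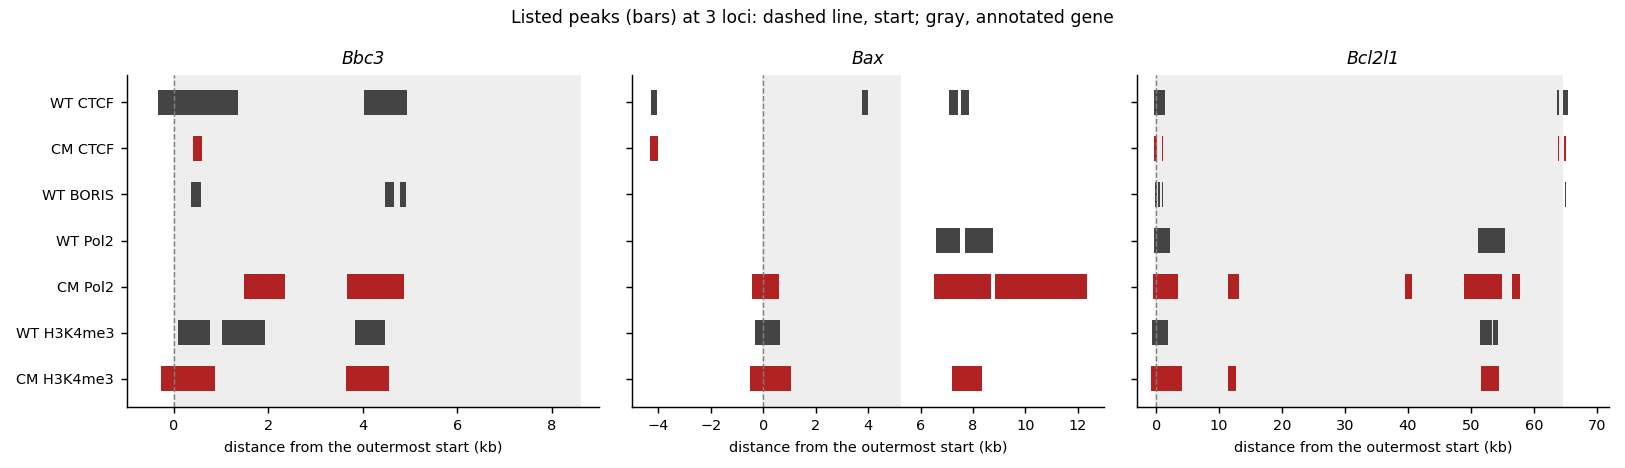
Listed peaks (bars) at Bbc3, Bax and Bcl2l1, by distance in kb from the outermost annotated start along the gene, with WT lists in black and CM lists in red. Bbc3 has CM Pol2 bars and no WT Pol2 bar, Bax has a CM Pol2 bar at its start and CTCF bars only away from it, and Bcl2l1 carries CTCF and BORIS bars at its start and past its end.

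Reads of some members cannot be fully separated from those of other genes, because the counting's use of strand is not given in the sources used here. Bak1 shared 357 exon bases with Ggnbp1, Bid 628 with Bcl2l13, Bad 517 with Gpr137 and Bcl2 558 with D630008O14Rik, all on the opposite strand, and Bcl2l2 shared 594 with Gm20521 on its own strand. Bax, Bcl2l11, Bbc3 and Mcl1 shared none, and neither did Bcl2l1, within which an annotated miRNA lies in an intron.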

How the data were processed

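RNA was measured in whole testis, round spermatids and spermatocytes, and the deposited counts are raw read counts per gene. Whole-testis RNA was depleted of rRNA, sequenced on an Ion Proton and aligned by the authors to mm9 with TopHat2 and Bowtie2. Round spermatids and spermatocytes were isolated by elutriation and sorting, and their poly(A) RNA was sequenced on an Illumina instrument and aligned with STAR. The counting tool, annotation and use of strand are not given in the sources used here. The submitters' processing notes also name Bowtie, DESeq2 and Cufflinks 2.0.0. The CTCF and BORIS peak lists deposited by the authors give a signal height (reads piled at the summit), and the Pol2 and H3K4me3 lists deposited by the authors give a score from the peak caller. The CTCF, BORIS and Pol2 lists each stand for 2 samples.

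Genes were kept by filterByExpr (minimum count 10, minimum total 15), scaled by TMM and tested pairwise with edgeR 4.0.16 (quasi-likelihood F test, R 4.3.3, limma 3.58.1), with Benjamini-Hochberg adjustment over all genes tested and a threshold of 0.05. Difference-of-effect tests used all their groups in 1 fit. Alternatives were DESeq2 1.42.0, its size factors in edgeR (RLE), no low-count filter, all groups of a table in 1 fit, a replicate block, the study's thresholds (adjusted p below 0.001 and fold change above 2), each library left out, and, chosen after the data were examined, DESeq2 at those thresholds and removal of each library's smooth trend on exon GC content (GENCODE vM1 on NCBIM37, 93.9% of genes matched). Tables and peaks were handled in Python 3.11.15 (pandas 2.3.3, numpy 2.4.6). A promoter reached 1 kb either side of any annotated start and a locus 5 kb from the gene, and 1 shared base counted as overlap. Members and lists were chosen with earlier results of these data known. All 10 members are described, and from each list the named genes are among the 3 called genes of lowest adjusted p.

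Same-numbered whole-testis libraries of different genotypes deviated together in 18 of 18 pairs (r 0.12 to 0.63). The replicate block pairs them by number. The main tests did not use this pairing, so their whole-testis calls ignore it. Only 4 of 18 round spermatid and 1 of 15 spermatocyte pairs passed 0.1. Over all genes no replicate pair agreed within counting noise, the closest being BORIS KO spermatocyte replicates 2 and 3. Their mean chi-square per degree of freedom was 6.766, where counting noise gives about 1. Over genes with at most 200 counts in the pair it was 1.102, so these libraries were close to counting noise there. On simulated data with 200 changed genes (log2 fold change 2), edgeR recovered 166 for CM against WT in whole testis (16130 genes) and 198 for BORIS KO against WT in round spermatids (15350 genes), with 12 false calls in each. The changed genes were drawn from those with a mean above 1 CPM, and the libraries were simulated without a GC trend or pairing. The recovery therefore does not cover members of lower level or these properties of the real libraries.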

Additional observations from a re-analysis of the deposited data

Results flagged for a closer look

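Bcl2l1 in libraries labelled CTCF HET moved in opposite directions in the 2 germ cell types. In round spermatids it was above WT in every library (log2 fold change 0.51, adjusted p = 0.0365 by edgeR), and in spermatocytes it was below WT in every library (log2 fold change -0.35, adjusted p = 0.0642), at 74.3, 75.8 and 70.9 CPM against 90.5 and 98.2. The difference between the 2 effects was not tested. With the GC trend removed the values were 0.29 (adjusted p = 0.0535) and 0.09 (adjusted p = 0.685).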

How the results depend on the processing

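Over the single-gene values compared under the alternatives, 1794 of 1914 kept their side of the threshold and, where called, their direction, while 81 lost a call and 37 gained one. The 2 reversals were both in round spermatids against spermatocytes labelled CTCF HET with the GC trend removed, Bcl2l1 at -0.44 and Bad at -0.24. The cause of the shifts given here was not tested. RLE scaling moved no count by more than 1.5 times.

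With DESeq2, genes called went from 1 to 3 (CTCF HET, whole testis), 9 to 386 (BORIS KO, whole testis), 1 to 1797 (CM, round spermatids), 89 to 3225 (CM, spermatocytes), 1 to 1201 (CM vs BORIS KO), 2562 to 4018 (CM vs CTCF HET), 0 to 29 (interaction) and 599 to 1458 (CM effect between cell types). Members called went from 1 to 3 (CM, whole testis), 0 to 1 (CM, round spermatids), 0 to 1 (CM, spermatocytes) and 1 to 2 (round spermatids against spermatocytes, CM).

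With the replicate block, genes called were 42 (CTCF HET, whole testis), 1077 (BORIS KO, whole testis), 7043 (CM, whole testis), 1225 (CM vs BORIS KO), 7106 (CM vs CTCF HET), 4 (interaction) and 258 (CM effect between cell types). Members called under the block were 3 (CM, whole testis), 1 (CM vs BORIS KO), 3 (CM vs CTCF HET), 3 rather than 5 (BORIS KO, round spermatids) and 2 rather than 4 (round spermatids against spermatocytes, CTCF HET). In the round spermatids and spermatocytes the libraries share only a number, so the blocked values there say nothing of the strength of an effect.

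Without a low-count filter, genes called were 20 (BORIS KO, whole testis) and 1376 (CTCF HET, spermatocytes), with 1 member in the latter. At the study's thresholds, edgeR called 0 genes for BORIS KO, CM, CM vs BORIS KO and CM vs CTCF HET in whole testis, for CM in round spermatids, for CTCF HET and CM in spermatocytes and for the CM effect between cell types, 1 for CTCF HET and 2404 for BORIS KO in round spermatids, 684 for BORIS KO in spermatocytes, and 5726, 2254, 7440 and 120 between cell types in WT, CTCF HET, BORIS KO and CM. Members called there were 2 for BORIS KO in round spermatids, 2 and 4 between cell types in WT and BORIS KO, and 0 in the other comparisons. DESeq2 at the same thresholds, chosen after the data were examined, called 51 (BORIS KO), 1635 (CM), 49 (CM vs BORIS KO) and 914 (CM vs CTCF HET) genes in whole testis, 533, 3346 and 140 (CTCF HET, BORIS KO and CM) in round spermatids, 462, 699 and 398 (the same) in spermatocytes, and 7085, 4624, 7472 and 3009 between cell types in WT, CTCF HET, BORIS KO and CM. Members called by it were 1 (Bax; CM, whole testis), 0 for CTCF HET with 3 for BORIS KO (round spermatids), 1 and 0 (the same, spermatocytes), 0 (CM vs CTCF HET), and 2, 2, 4 and 0 between cell types.

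With all groups in 1 fit, genes called were 287, 4844 and 2532 (CTCF HET, BORIS KO and CM in round spermatids), 3209, 949 and 1068 (the same in spermatocytes), 379 (CM vs BORIS KO), 5007 (CM vs CTCF HET), 8627 (between cell types, CM) and 1230 (CM effect between cell types). Members called were 3 (CM, whole testis), 0 (CTCF HET) and 3 (BORIS KO) in round spermatids, 5 and 0 (the same, spermatocytes), 2 (CM vs CTCF HET), and 5 and 5 (between cell types, BORIS KO and CM). With the GC trend removed, genes called were 981 (CTCF HET) and 416 (CM) in spermatocytes, and members called 0 (CTCF HET, round spermatids), 3 (BORIS KO, round spermatids) and 0 (CTCF HET, spermatocytes). Among peaks in the upper 50% of values, 4 members had a WT CTCF promoter peak rather than 7, and 4 a CM CTCF peak at the locus rather than 7.

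With each library left out in turn, genes called ranged over 0 to 44 (BORIS KO, whole testis), 3 to 4920 (CM, whole testis), 929 to 6516 (CTCF HET, round spermatids), 0 to 896 (CM, round spermatids), 1 to 3088 (CTCF HET, spermatocytes), 0 to 5567 (CM, spermatocytes), 0 to 1282 (CM vs BORIS KO), 0 to 3627 (CM vs CTCF HET), 2373 to 5457 (between cell types, CM) and 0 to 999 (CM effect between cell types). Members called ranged over 0 to 3 (CM, whole testis), 0 to 3 (CTCF HET) and 3 to 5 (BORIS KO) in round spermatids, 0 to 2, 3 to 5 and 0 to 2 (CTCF HET, BORIS KO and CM, spermatocytes), 0 to 2 (CM vs CTCF HET), and 3 to 7 and 0 to 1 (between cell types, WT and CM). Where a WT spermatocyte library is left out, the lone library is assumed to vary like the other group. Bcl2, Bbc3 and Bcl2l11 had under 10 counts in many germ cell libraries, although these were sequenced more deeply than whole testis, so their values there have wide counting error.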
